A study of Mus musculus with 20 samples.

Results

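The genes of synaptic vesicles and of the SNARE machinery were followed through the hippocampus of Fmr1 KO and C57 mice of both sexes. They were taken by symbol: synaptotagmins (Syt), synapsins (Syn1 to Syn3), synaptophysins (Syp), synaptogyrins (Syngr), SV2 proteins (Sv2), syntaxins (Stx), syntaxin-binding proteins (Stxbp), VAMPs, SNAP genes, complexins (Cplx), RIM (Rims) and Munc13 (Unc13) genes, and every symbol that begins with Rab3. Of the 13256 genes listed in the files, 88 matched, all 88 passed the filter on low values (0.5 FPKM in at least 5 libraries), and the choice leaves out Syt16, so 87 of the 13174 tested genes are members. FPKM count a gene's fragments relative to its length and to the library's size, so they are a unit in which levels of different genes can be set side by side. The symbol pattern also takes in genes with other work: 12 of the members are Rab30 to Rab39 proteins, which are not Rab3, and Snap91 encodes AP180, an adaptor of clathrin coats.

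A synaptic vesicle fuses with the presynaptic membrane when VAMP on the vesicle zips together with syntaxin and SNAP-25 on the plasma membrane into the SNARE complex. Munc13 and RIM proteins prepare vesicles for fusion at the active zone, complexin holds the assembled complex, and synaptotagmin triggers fusion when calcium enters. FMRP, the RNA-binding protein that Fmr1 encodes, is absent in fragile X syndrome, and it binds many messenger RNAs of synaptic proteins in the brain.

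The samples were 4 groups of 5 libraries of hippocampal RNA: male KO, male WT, female KO and female WT. Titles call the mutants KO and the wild types C57, and the genotype field writes Fmr1 knockdown and WT. The titles of all 4 groups, KO included, also hold the label Con, and what it stands for was not stated. Age, allele and treatment were not stated in those sources either. Whether each sample is its own animal is not stated, so p-values measure the spread between samples, which may be technical. Fmr1 itself ran from 3.31 to 3.72 FPKM in male KO and 10.5 to 11.8 in male WT, and from 2.90 to 3.66 in female KO and 9.85 to 11.3 in female WT, so each library matched its genotype label. No such check of the sex labels is given here. All 10 dentate granule and all 10 pyramidal cell markers were measured in every library. Between 12766 and 12899 genes reached 0.5 FPKM in a library, the log2 values of any 2 libraries had a Pearson r of 0.977 to 0.990 across genes, and sequencing depth is unknown because FPKM are not counts. In whole tissue, fewer cells of a type and less RNA per cell cannot be told apart.

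Between 1.29% and 1.43% of the FPKM in a library belonged to the 87 genes, and their levels spanned a wide range. The most abundant were Snap25, the plasma membrane SNARE of evoked release, at 309 FPKM over the 20 libraries, Cplx2 at 284, Vamp2 at 223, Syp at 218 and the calcium sensor gene Syt1 at 199. The next 5 were Cplx1 (179), the vesicle GTPase Rab3a (170.3), the phosphoprotein gene Syn1, whose product clusters vesicles (156), Syt11 (117) and Syn2 (86.6), and together these 10 genes held 60.1% of the members' summed FPKM. At the other end stood Rab37 at 0.467 FPKM, Vamp5 at 0.490, Syn3 at 0.523, Rab39 at 0.549 and Rims3 at 0.689. In all, 78 members averaged at least 1 FPKM, 40 at least 10 and 9 at least 100, and the median member stood at 9.38 FPKM, against 5.61 for all tested genes. Libraries of a group agreed about as closely for the members (median coefficient of variation 8.02%) as for all tested genes (8.66%).

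**Figure D1:**
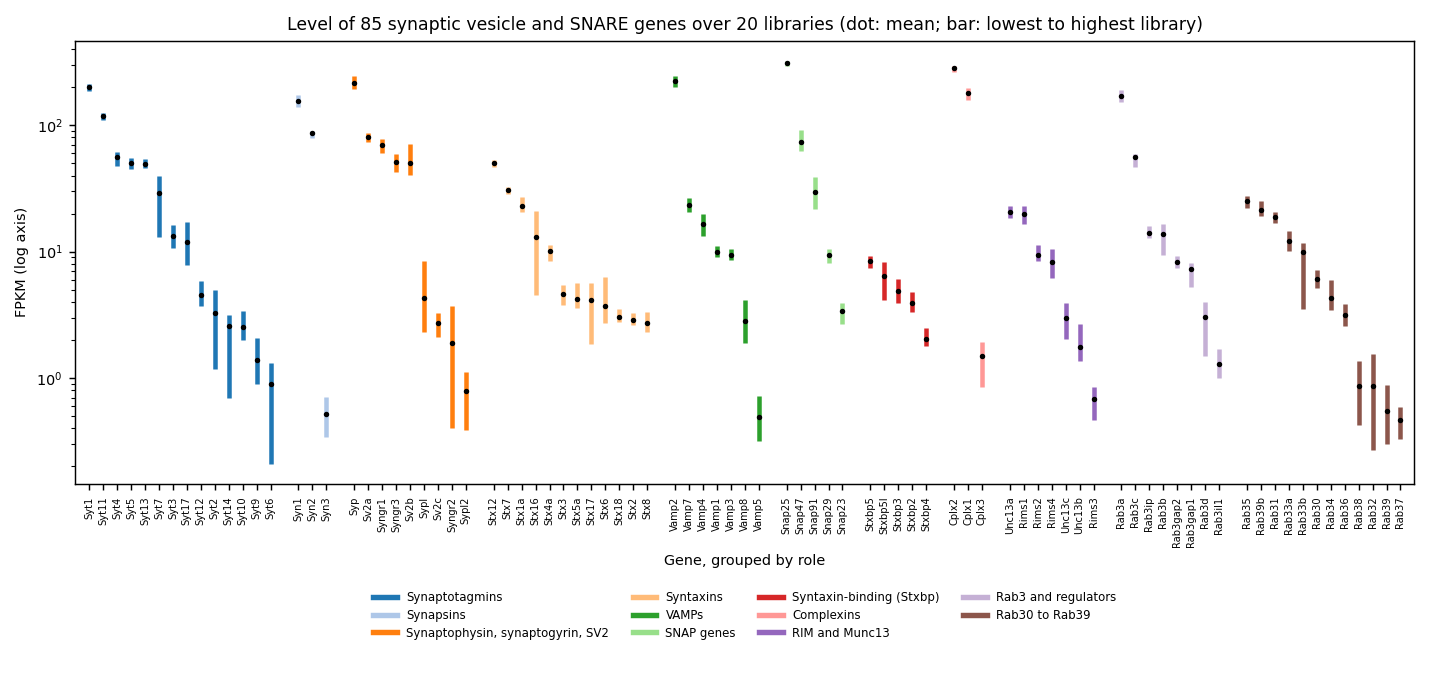
Level of 85 of the 87 genes, grouped by role (horizontal axis), in FPKM on a log axis; dots are means over the 20 libraries and bars run from the lowest to the highest library. Snap25 is at the top (309 FPKM) and Rab37 at the bottom (0.467 FPKM), and Stx16, Sypl, Rab33b and Syt14 have long bars.

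Of each pair of related genes compared here, the same one was higher in all 20 libraries. Snap25 was 90.4 times as high as Snap23, the broadly expressed form (ratio of means, 77.0 to 118 over libraries). Vamp2 exceeded Vamp1, the form prominent in spinal cord and brainstem, 22.6 times (18.0 to 25.2). Syt1 was 60.9 times as high as Syt2, the fast sensor of hindbrain and many interneurons (40.1 to 164). Munc13-1 (Unc13a, 20.5 FPKM) exceeded Unc13b 11.6 times, and the scaffold gene Rims1 (19.9 FPKM) exceeded Rims2 2.12 times. The closest pairs were Syngr1 over Syngr3 (1.38), Cplx2 over Cplx1 (1.58), Sv2a, the binding site of levetiracetam, over Sv2b (1.60) and Syn1 over Syn2 (1.81). These ratios are of FPKM levels, per length.

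In the female hippocampus, 5 of the 87 genes passed the test between KO and WT, all higher in KO: Syp, Syngr1 and Syngr3 of the vesicle membrane, Vamp2 of the vesicle SNARE, and Rims4 of the active zone. Their increases were small, between 10.3% and 24.7% on the scale of FPKM + 1. Values were compared as log2(FPKM + 1) with limma over all genes, with p-values adjusted over all of them by Benjamini and Hochberg's method and 0.05 as the limit. The 5 members are 5.75% of 87, against 3.32% of all tested genes in this comparison (1.8% of all genes higher and 1.53% lower). At an unadjusted p under 0.05 there were 16 members (18.4%, against 19.5% of all tested genes). The median log2 difference was 0.03 over the members and 0.01 over all tested genes, and 51 members lay above 0 (58.6%, against 52.03% of all tested genes).

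Synaptophysin is an abundant membrane protein of synaptic vesicles and a partner of VAMP2. Syp (ENSMUSG00000031144.15, mm10 chromosome X, 7638471 to 7653256, + strand) had 232, 241, 245, 239.7 and 241 FPKM in female KO libraries, against 209.6, 220.0, 208, 199.7 and 211 in female WT. Every KO library lay above every WT library. The means were 239 ± 4.88 in KO and 209.7 ± 7.25 in WT (SD, n = 5 each), a log2 difference of 0.19 (SE 0.0366, limma adjusted p = 0.0129). In the annotation a noncoding gene, Gm14703, lies antisense to Syp, and since no strand setting is given, reads from the pair cannot be told apart.

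The synaptogyrins are vesicle proteins that cross the membrane several times and are related to synaptophysin. Syngr3 (ENSMUSG00000007021.4, mm10 chromosome 17, 24685092 to 24689955, - strand) had 58.8, 59.3, 55.9, 56.6 and 54.7 FPKM in female KO libraries, against 52.2, 50.4, 49.7, 42.9 and 49.2 in female WT. The groups did not overlap, and WT library 4 was the lowest. Means were 57.1 ± 1.96 in KO and 48.9 ± 3.54 in WT (SD, n = 5 each), with a log2 difference of 0.22 (SE 0.0516, limma adjusted p = 0.0264). Syngr1 (ENSMUSG00000022415.12, mm10 chromosome 15, 80091334 to 80119501, + strand) had 73.5, 74.8, 77.4, 77.9 and 77.5 FPKM in KO, against 71.6, 70.8, 68.7, 59.8 and 68.4 in WT, and again all KO libraries were above all WT libraries. Its means were 76.2 ± 1.95 FPKM in KO and 67.9 ± 4.71 in WT (SD, n = 5 each), a log2 difference of 0.17 (SE 0.0424, limma adjusted p = 0.0359). The ribosomal protein gene Rpl3 overlaps Syngr1 on the other strand, and their reads cannot be told apart here either. The third synaptogyrin, Syngr2, a form of tissues other than brain, had a log2 difference of -0.26 (adjusted p = 0.678) at a mean level of 1.89 FPKM.

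Vamp2 encodes synaptobrevin 2, the vesicle SNARE of most forebrain synapses. Vamp2 (ENSMUSG00000020894.16, mm10 chromosome 11, 69088490 to 69092384, + strand) had 223, 240.0, 245, 242 and 244 FPKM in female KO libraries, against 223, 224, 218, 199.9 and 217 in female WT. KO library 1 lay inside the WT range, and the other 4 KO libraries lay above it. The means were 239 ± 9.10 in KO and 217 ± 9.68 in WT (SD, n = 5 each), a log2 difference of 0.14 (SE 0.0346, limma adjusted p = 0.0334). Rims4 encodes a short RIM protein that holds little beyond the C-terminal C2 domain. Rims4 (ENSMUSG00000035226.5, mm10 chromosome 2, 163859751 to 163918683, - strand) had 9.07, 10.6, 10.4, 10.04 and 9.09 FPKM in KO, against 8.65, 8.15, 7.42, 6.14 and 8.18 in WT, with no overlap. The means were 9.82 ± 0.703 in KO and 7.71 ± 0.978 in WT (SD, n = 5 each), a log2 difference of 0.32 (SE 0.0695, limma adjusted p = 0.0186).

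**Figure D2:**
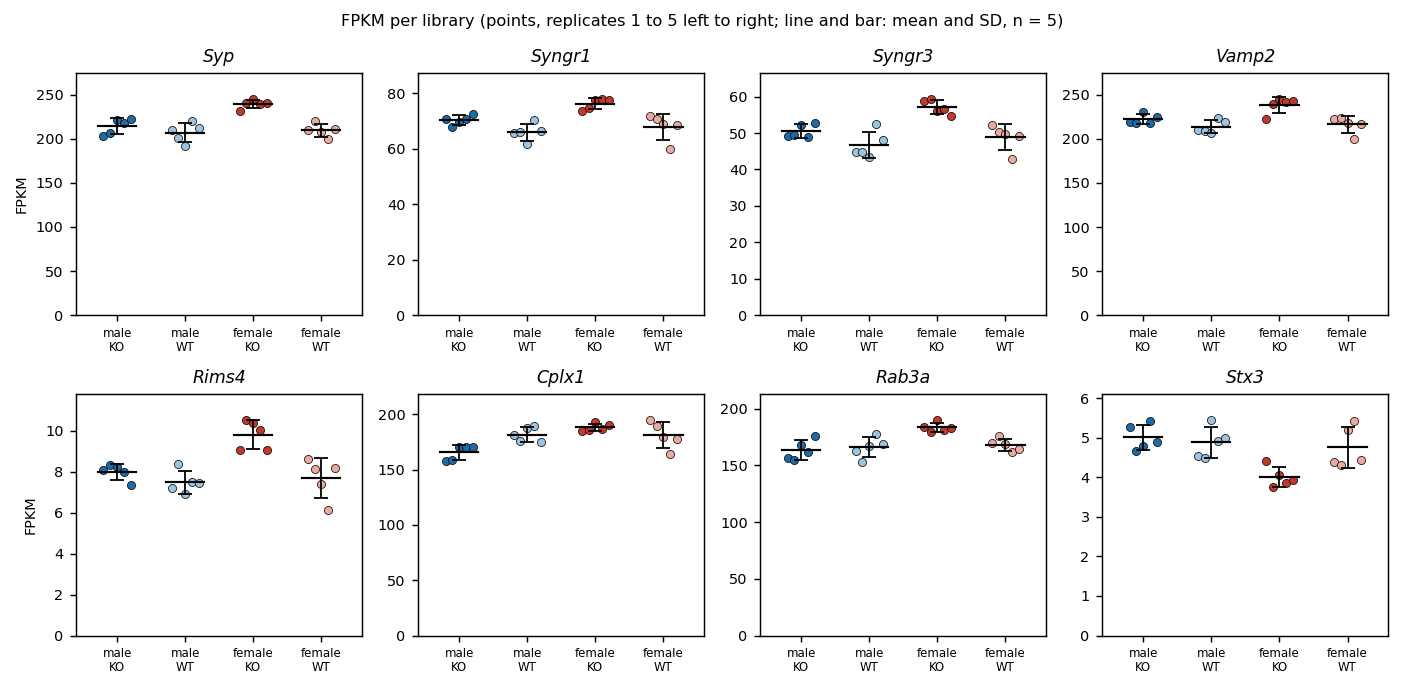
FPKM of 8 genes in each library (points, replicates 1 to 5 from left to right) of male KO, male WT, female KO and female WT, with mean and SD (n = 5); axes start at 0. In the 5 genes called between female KO and female WT (Syp, Syngr1, Syngr3, Vamp2, Rims4) the female KO points are the highest of the 4 groups on average, while Stx3 is lowest there (4.001 FPKM).

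The rest of the release machinery did not pass the test in females. Snap29, a SNARE of intracellular membranes, came closest, with 10.2, 10.4, 9.99, 9.29 and 9.76 FPKM in KO and 9.23, 8.77, 8.57, 8.18 and 8.64 in WT (log2 difference 0.18, limma adjusted p = 0.0517). Its groups did not overlap, and Pi4ka lies on the other strand. Rab3a (log2 difference 0.13, adjusted p = 0.0764) and Syn1 (0.10, adjusted p = 0.221) also had all KO libraries above all WT libraries. In all, 7 members (8.05%) did so, against 3.17% of tested genes, and 0 members had all KO libraries below all WT libraries, against 2.82%. Stx3, a syntaxin of dendrites and ribbon synapses, had a log2 difference of -0.20 (adjusted p = 0.0764).

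The core SNAREs and their partners gave small differences in females. Snap25 averaged 308 ± 6.45 FPKM in KO and 307 ± 7.80 in WT (SD, n = 5 each), a log2 difference of 0.01 with a 95% interval of -0.0542 to 0.0708. Cplx2, which clamps and promotes fusion, averaged 285 ± 11.3 in KO and 284 ± 5.63 in WT (SD, n = 5 each), a log2 difference of 0.00. The 95% intervals of the log2 difference were 0.0341 to 0.265 for Stx1a, a plasma membrane syntaxin at 23 FPKM over all libraries, 0.0217 to 0.149 for Syt1, -0.0274 to 0.139 for Cplx1, -0.0340 to 0.0980 for Syn2 and -0.0109 to 0.144 for Sv2a. For the priming factors they were -0.178 to 0.0197 for Unc13a and -0.210 to 0.0629 for Rims1. None of these genes passed (adjusted p = 0.127 for Syt1 and 0.141 for Stx1a, the smallest).

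By role, 3 of the 9 vesicle membrane genes, 1 of 7 VAMPs and 1 of 7 RIM and Munc13 genes rose in KO females, and 0 members of the other 8 roles passed, where 1.8% of all tested genes rose. The summed vesicle membrane genes averaged 512 ± 6.03 FPKM in female KO and 463 ± 23.01 in female WT (SD, n = 5 each). This sum includes Syp, Syngr1 and Syngr3, which had passed, so it is not separate from their calls. Of the 9 genes, 6 had a log2 difference above 0 and 3 below. All 3 complexins, 6 of 8 genes of the Rab3 group and 10 of 14 synaptotagmins had a log2 difference above 0 in females, while 8 of 13 syntaxins and 4 of 6 Stxbp genes lay below it. Of all tested genes, 52.03% lay above 0. The 87 members together summed to 3325 ± 38.7 FPKM in female KO and 3179.9 ± 79.3 in female WT (SD, n = 5 each). The libraries overlapped, at 3278.3 to 3370.9 in female KO and 3060.7 to 3279.0 in female WT. Female WT 4 had the lowest sum, and it was also the lowest female WT library in Syp, Syngr1, Syngr3, Vamp2 and Rims4.

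In the male hippocampus 0 of the 87 genes passed between KO and WT in limma, and 6 had an unadjusted p under 0.05 (6.9%, against 8.69% of all tested genes). Only 6 of 13174 genes (0.0455%) passed in this comparison at all. The smallest p among the members was that of Cplx1, whose product binds the assembled SNARE complex. Cplx1 (ENSMUSG00000033615.9, mm10 chromosome 5, 108518554 to 108550024, - strand) had 158, 158, 171, 170.2 and 170.1 FPKM in male KO, against 181, 175, 188, 189 and 175 in male WT. All KO libraries lay below all WT libraries, as in 1.4% of tested genes, and 0 members had all of them above, against 0.607%. The log2 difference was -0.13 (SE 0.0398, limma adjusted p = 0.287). The next were Rab3ip, which activates the related GTPase Rab8 (-0.12, adjusted p = 0.383), Syt10 (0.22, 0.446), Syt11 (-0.06, 0.527) and Syngr3 (0.11, 0.552).

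The 5 genes that rose in KO females had log2 differences of 0.05 to 0.11 in males, and none passed. Syp averaged 214 ± 9.04 FPKM in male KO and 207 ± 10.7 in male WT (SD, n = 5 each), a log2 difference of 0.05 (limma adjusted p = 0.751). Syngr3 averaged 50.5 ± 1.85 in male KO and 46.7 ± 3.61 in male WT (SD, n = 5 each), and its log2 difference was 0.11. For the other 3 the log2 differences in males were 0.09 (Syngr1), 0.08 (Rims4) and 0.06 (Vamp2). In all 5 genes the male KO and male WT libraries overlapped. Averaged over both sexes, the 5 genes passed again, all higher in KO (5.75%, against 3.22% of tested genes, 1.38% of all genes higher and 1.84% lower). This average shares its libraries with the comparison in females: its log2 differences were 0.12 for Syp (limma adjusted p = 0.0172), 0.17 for Syngr3 (0.0185), 0.13 for Syngr1 (0.0239), 0.20 for Rims4 (0.0303) and 0.10 for Vamp2 (0.0323).

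**Figure D3:**
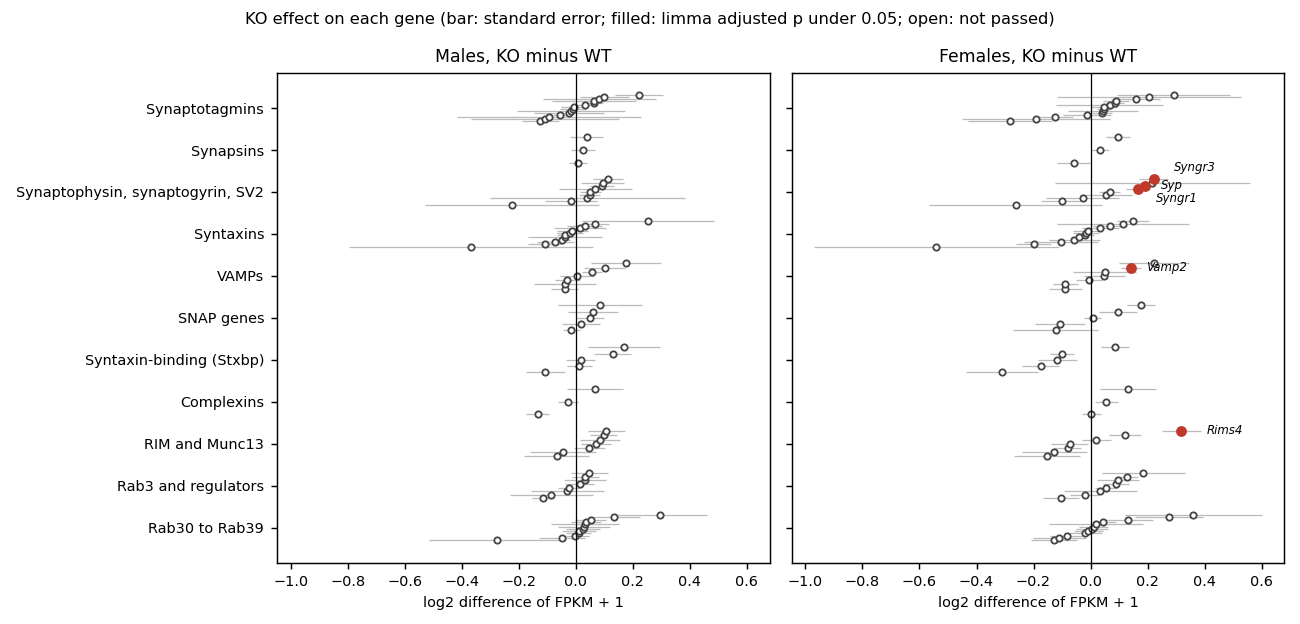
Difference between KO and WT, as log2 of FPKM + 1, for 85 of the 87 genes by role, in males (left) and females (right); bars are standard errors and filled points passed limma at an adjusted p under 0.05. The 5 filled points, all right of 0, are in females, and the longest bars belong to genes with separate levels such as Stx16 (-0.37 in males and -0.54 in females).

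A direct test of whether the KO effect differed between the sexes subtracted the female effect from the male one, and 0 of the 87 genes passed in limma (0.0455% of all tested genes did). At an unadjusted p under 0.05 there were 11 members (12.6%, against 10%). For Syp the difference of effects was -0.14 on the log2 scale with a 95% interval of -0.249 to -0.0321 (adjusted p = 0.390), and for Rims4 it was -0.23 (-0.440 to -0.0289, adjusted p = 0.444). The intervals were -0.187 to 0.0185 for Vamp2, -0.262 to 0.0437 for Syngr3 and -0.202 to 0.0489 for Syngr1, which all hold 0. Those of Syp and Rims4 exclude 0, but they are not adjusted for the number of genes tested, and neither gene passed. The data therefore do not show Syp, Rims4, Vamp2, Syngr3 or Syngr1 to respond differently, or alike, in males and females. The smallest p-values were those of Cplx1 (-0.19, adjusted p = 0.301), Stxbp2, a syntaxin-binding protein of blood and epithelial cells (0.30, 0.320), Syt11 (-0.11, 0.353) and Rab3ip (-0.17, 0.353).

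Between the sexes, 5 of the 87 genes differed among KO libraries (5.75%, against 5.38% of all tested genes) and 0 among WT libraries. In KO, Cplx1, Syp, Rab3a and Rims4 were lower in males than in females (4.6% of members, against 3.13% of tested genes) and Stx3 was higher (1.15%, against 2.25%), and 20 members had an unadjusted p under 0.05 (23%, against 23.3%). The same female KO libraries stand in this comparison and in that of female KO with female WT. Cplx1 averaged 165 ± 6.58 FPKM in male KO and 188 ± 3.44 in female KO (SD, n = 5 each, log2 difference -0.18, SE 0.0398, limma adjusted p = 0.0182), and the female KO libraries, at 185, 186, 193, 186 and 190.2, were all above the male ones. Rab3a (ENSMUSG00000031840.12, mm10 chromosome 8, 70754679 to 70758677, + strand), a GTPase that tethers vesicles through RIM, had 156, 154, 168, 162 and 176 FPKM in male KO, against 184, 179.6, 190.4, 182 and 183 in female KO. Its groups did not overlap, and the log2 difference was -0.17 (SE 0.0396, limma adjusted p = 0.0240). Mpv17l2 overlaps Rab3a on the other strand. Syp (-0.16, adjusted p = 0.0220) and Rims4 (-0.27, adjusted p = 0.0338) were lower in male KO than in female KO without overlap.

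Stx3 (ENSMUSG00000041488.16, mm10 chromosome 19, 11775118 to 11819403, - strand) ran the other way. It had 5.26, 4.67, 4.79, 5.41 and 4.90 FPKM in male KO, against 4.41, 3.76, 4.06, 3.85 and 3.93 in female KO, with every male library above every female one. The log2 difference was 0.26 (SE 0.0611, limma adjusted p = 0.0233). In all, 8 members (9.2%, against 4.52% of tested genes) had every male KO library below every female KO library and 2 (2.3%, against 3.5%) had every one above. In WT, limma called 0 of 87 members (0.129% of all tested genes, 0.0987% higher and 0.0304% lower in males) and 6 had an unadjusted p under 0.05 (6.9%, against 10.3%). The smallest p-values there were those of Syt11, a synaptotagmin that does not bind calcium (0.09, adjusted p = 0.211), Rab3ip (0.12, 0.290), Rab3il1 (-0.19, 0.330), Stxbp2 (-0.18, 0.352) and the endosomal syntaxin gene Stx12 (0.08, 0.404). In Stx12 every male WT library lay above every female one (1.39% of tested genes), and in Stxbp2 every one lay below (0.789%).

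For 5 of the 8 genes that passed in females or between the KO sexes, a RefSeq promoter (build GRCm38.p6, which is mm10) is printed, as the sequence next to the start of a called gene. No promoter of Rims4, Syngr3 or Vamp2 is shown. All 8 genes but Stx3 had their highest group mean in female KO, and Stx3 had its lowest there. Each line holds up to 250 bases before the RefSeq start on the gene's strand, 5′ to 3′, ended before the start of the deposited gene where that lies further upstream. Capitals mark matches on either strand to 5 motifs. They are the GC box, GGGCGG, bound by Sp1, and the E-box, CACGTG, bound by the USF and Myc families. The others are the core of the cyclic AMP response element (CRE), TGACGT, then the box named for its letters, CCAAT, and the TATA box, searched as TATAAA.
Syp (chrX:7638330-7638470, + strand): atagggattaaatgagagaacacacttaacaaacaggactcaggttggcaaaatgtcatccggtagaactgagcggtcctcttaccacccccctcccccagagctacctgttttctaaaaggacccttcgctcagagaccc
Syngr1 (chr15:80091084-80091333, + strand): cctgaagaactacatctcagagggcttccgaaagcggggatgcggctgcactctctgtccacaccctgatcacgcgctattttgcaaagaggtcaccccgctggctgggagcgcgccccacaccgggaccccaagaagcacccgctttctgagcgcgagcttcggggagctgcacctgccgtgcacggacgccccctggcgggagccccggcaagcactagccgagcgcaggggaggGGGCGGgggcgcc
Cplx1 (chr5:108550028-108550277, - strand): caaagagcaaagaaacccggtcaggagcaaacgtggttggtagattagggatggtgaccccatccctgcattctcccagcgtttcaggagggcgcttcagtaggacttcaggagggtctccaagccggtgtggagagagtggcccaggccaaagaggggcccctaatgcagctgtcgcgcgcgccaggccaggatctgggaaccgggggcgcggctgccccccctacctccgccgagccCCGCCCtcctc
Rab3a (chr8:70754453-70754678, + strand): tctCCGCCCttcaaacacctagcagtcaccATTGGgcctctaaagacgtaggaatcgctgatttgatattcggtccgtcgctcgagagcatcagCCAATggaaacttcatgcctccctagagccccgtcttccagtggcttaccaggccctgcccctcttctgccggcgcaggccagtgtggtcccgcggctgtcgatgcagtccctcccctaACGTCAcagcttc
Stx3 (chr19:11819404-11819653, - strand): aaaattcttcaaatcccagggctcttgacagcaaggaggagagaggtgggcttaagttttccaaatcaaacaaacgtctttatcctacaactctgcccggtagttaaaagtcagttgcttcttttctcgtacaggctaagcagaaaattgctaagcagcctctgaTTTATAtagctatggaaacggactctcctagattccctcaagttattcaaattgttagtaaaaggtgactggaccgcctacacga

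The 141 bases of Syp held none of the 5 motifs. Syngr1 and Cplx1 had 1 GC box each in 250 bases, Rab3a had 1 GC box, 1 CRE core and 2 CCAAT boxes in 226 bases, and Stx3 had 1 TATA box in 250. Of the 32851 promoters of this table, a GC box was in 32.7% of windows of 250 bases, 29.3% of 226 and 15.4% of 141. In the 87 promoters that belonged to members, of 67 genes, these shares were 66.7%, 58.6% and 25.3%. A TATA box was in 12.4% of all 250-base windows and 6.90% of those of members. In windows of 226 bases a CCAAT box was in 31.7% of all promoters and 27.6% of those of members. A CRE core was in 5.40% and 5.75% of these windows. An E-box was in 6.02% of all windows of 250 bases and 14.9% of those of members. The GC content of the printed stretches ran from 42.0% for Stx3, through 49.6% for Syp, 58.8% for Rab3a and 64.8% for Cplx1, to 68.4% for Syngr1. The median was 61.2% over the promoters of members and 52.4% over all promoters of the table, which includes noncoding genes.

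The calls in females changed when single libraries were left out, and each such fit has 1 library fewer. The counts here are of members only, without the share of all tested genes, so they show no loss particular to the members. Without female KO 2 or without female KO 3, only 1 member (Syp) passed in females, without female WT 4 or female WT 5 there were 2 (Syp and Rims4), and without female WT 3 or female KO 5 there were 3. Syp passed with each of the 10 female libraries left out, Rims4 with 8, Syngr3 with 6, and Syngr1 and Vamp2 with 3. Among the KO sexes, 0 members passed without male KO 1, 2 without male KO 2 or female KO 3, and 3 without male KO 4 or female KO 2. Averaged over the sexes, 3 members passed without female KO 2, female KO 3, male WT 1, male WT 3 or male KO 3.

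Prl and Ttr were each high in some libraries, and in no group as a whole. Female KO 2, 3 and 4 held 4.63, 42.2 and 22.1 FPKM of the pituitary hormone gene Prl, and the highest of the other libraries was at 1.68. Without these 3 libraries 0 members passed in females in limma, with 12 at an unadjusted p under 0.05, and the log2 difference was 0.17 for Syp (adjusted p = 0.217), 0.21 for Syngr3, 0.22 for Rims4, 0.15 for Syngr1 and 0.11 for Vamp2. Ttr, the leading gene of the choroid plexus, exceeded 500 FPKM in male KO 2, female KO 4, female KO 5 and female WT 4 and was at most 169 elsewhere. Without those 4 libraries 0 members passed in females in limma (10 at an unadjusted p under 0.05), and the log2 differences were 0.17 for Syp (adjusted p = 0.111), 0.20 for Syngr3, 0.27 for Rims4, 0.10 for Syngr1 and 0.10 for Vamp2. The shares of all tested genes that passed without these libraries are not given here. The loss of calls can therefore not be called particular to the members.

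Trends of expression on GC content were taken relative to each gene's mean over the 20 libraries. Those of the 5 female KO libraries were the 5 steepest positive ones (0.0618 to 0.0759 log2 units for each 10 percentage points of transcript GC). The transcripts of Syngr3, Syngr1, Rims4 and Vamp2 had 57%, 56.8%, 56.2% and 53.2% GC and that of Syp 45.4%, against a median of 49.7% over tested genes. With each library's own trend on GC removed, Syp had a log2 difference of 0.22 in females (limma adjusted p = 0.0126) and passed together with Snap29 and Syt1. Rims4 (0.28, adjusted p = 0.0523), Syngr3 (0.17, 0.0541), Vamp2 (0.12, 0.0599) and Syngr1 (0.12, 0.102) did not. Between the KO sexes Syp alone passed with the trend removed, lower in males. The share of all tested genes that passed with the trend removed is not given here. The lost calls can therefore not be called particular to the members, and their cause was not tested.

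Summed markers of cell types are given here without a test. The 10 neuronal markers summed to between 922 and 951 FPKM in female KO and between 863 and 929 in female WT, and 8 of the 10 had the higher mean in KO. The 10 interneuron markers summed to between 638 and 683 in female KO and between 545 and 633 in female WT (7 of 10 higher in KO). The 10 dentate granule markers summed to between 95 and 124 in female KO and between 122 and 143 in female WT (0 of 10 higher in KO). The 10 pyramidal markers gave 394 to 432 in female KO and 424 to 459 in female WT (5 of 10 higher in KO), and the 10 oligodendrocyte markers 586 to 725 in female KO and 536 to 907 in female WT (0 of 10). Endothelial markers summed to 63.8 to 81.4 in female KO and 57.7 to 64.02 in female WT (6 of 7 higher in KO), and astrocyte markers to 606 to 640.1 in female KO and 585 to 622 in female WT (6 of 8). Ependymal markers summed to 14.8 to 23.2 in female KO and 7.99 to 18.3 in female WT (6 of 6), and those of the choroid plexus to 43.4 to 1531 in female KO and 12.6 to 914 in female WT (8 of 8). For oligodendrocyte precursors the sums were 63.9 to 71.1 in female KO and 56.3 to 67.4 in female WT (3 of 7), and for microglia 105 to 119 in female KO and 105 to 125 in female WT (3 of 7). The 4 measured of 7 pituitary markers (Prl, Gh, Pomc and Chgb) summed to 236 to 344 in female KO and 242 to 277 in female WT (3 of 4). Prl was at most 1.68 FPKM in female WT, so most of that sum was not Prl, and it is no measure of pituitary RNA. Of these 12 lists, that of interneurons alone had sums that did not overlap between female KO and female WT. In males the sums of all 12 lists overlapped between KO and WT, at 843 to 927 FPKM in male KO and 823 to 943 in male WT for neurons and 546 to 639 in male KO and 560 to 655 in male WT for interneurons. For dentate granule cells they were 118 to 126 in male KO and 121 to 130 in male WT. For oligodendrocytes they were 637 to 775 in male KO and 703 to 870.2 in male WT, with 0 of 10 markers higher in KO as in females. Kcnj13, Aqp1, Prl and Gh, of the choroid plexus and pituitary lists, were listed at 0 in some libraries, and the other markers measured in none. The part of cell makeup, of Prl and Ttr and of GC content in the members' differences was not tested beyond the values without those libraries and without the GC trend.

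**Figure D4:**
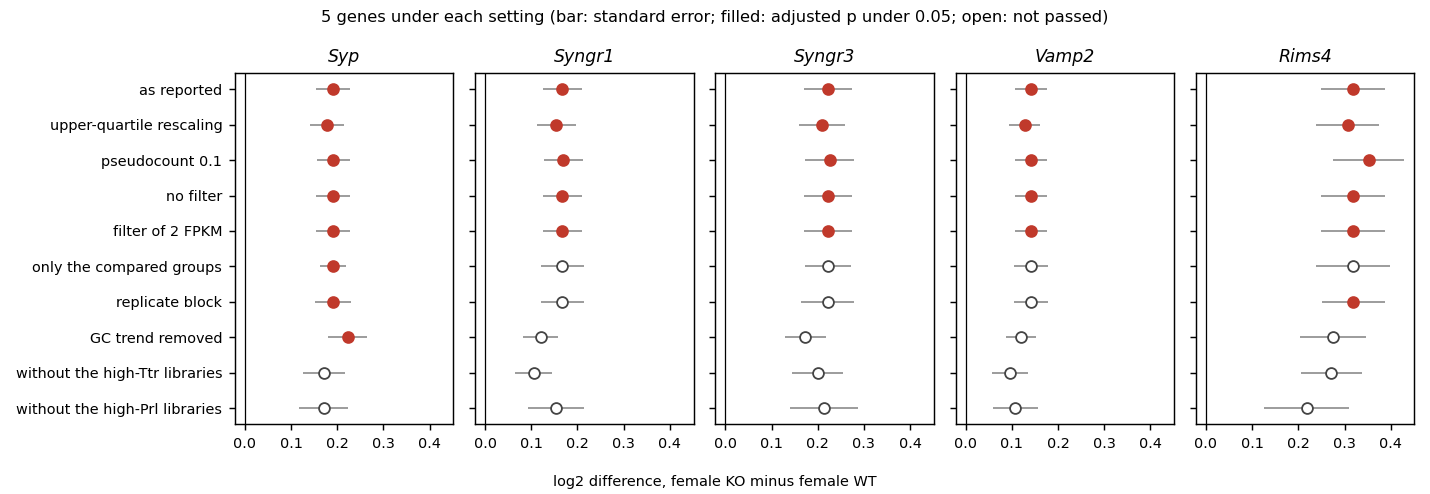
log2 difference between female KO and female WT of Syp, Syngr1, Syngr3, Vamp2 and Rims4 as reported and under 9 other settings; bars are standard errors and filled points passed at a limma adjusted p under 0.05. Each point is right of 0, Syp is filled in all but the bottom pair of settings, which leave out the libraries high in Ttr (0.17) or in Prl (0.17), and no gene is filled there.

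In some members, libraries of 1 group sat on separate levels. In 4 of 85 members (4.71%, against 3.73% of tested genes) the largest gap between neighbouring libraries exceeded 50% of the whole log2 range. Stx16, a syntaxin of the trans-Golgi network, had 16.5, 16.4, 4.51, 15.3 and 4.59 FPKM in male KO, 4.70, 15.9, 19.04, 15.7 and 16.02 in male WT, 15.6, 4.64, 4.72, 21.1 and 12.99 in female KO and 14.98, 14.2, 16.3, 16.7 and 13.5 in female WT. Its 5 low libraries were male KO 3 and 5, male WT 1 and female KO 2 and 3. Its log2 difference in females, -0.54, was the largest of all members in size and did not pass (limma adjusted p = 0.511).

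Sypl, a synaptophysin relative found widely outside neurons, was at least 7.83 FPKM in 5 libraries (male KO 1, male WT 1, female KO 4 and 5, female WT 3) and at most 3.84 in the other 15. Rab33b, a Golgi and autophagy GTPase, stood at 3.76 FPKM in male KO 1 and 3.49 in female WT 4, while the other libraries ran from 9.21 to 11.6. Syt14 was at 0.696 FPKM in female KO 5 and at least 2.21 elsewhere. Syt7, a high-affinity calcium sensor of slow release, was added to the plot of separate levels after its values were seen: it ran from 13.03 to 39.7 FPKM, with male KO libraries at 39.4, 24.7, 13.5, 37.6 and 13.97 and female KO libraries at 28.2, 36.8, 33.7, 36.03 and 30.7. None of these genes passed in any comparison, and what sets the levels was not tested.

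**Figure D5:**
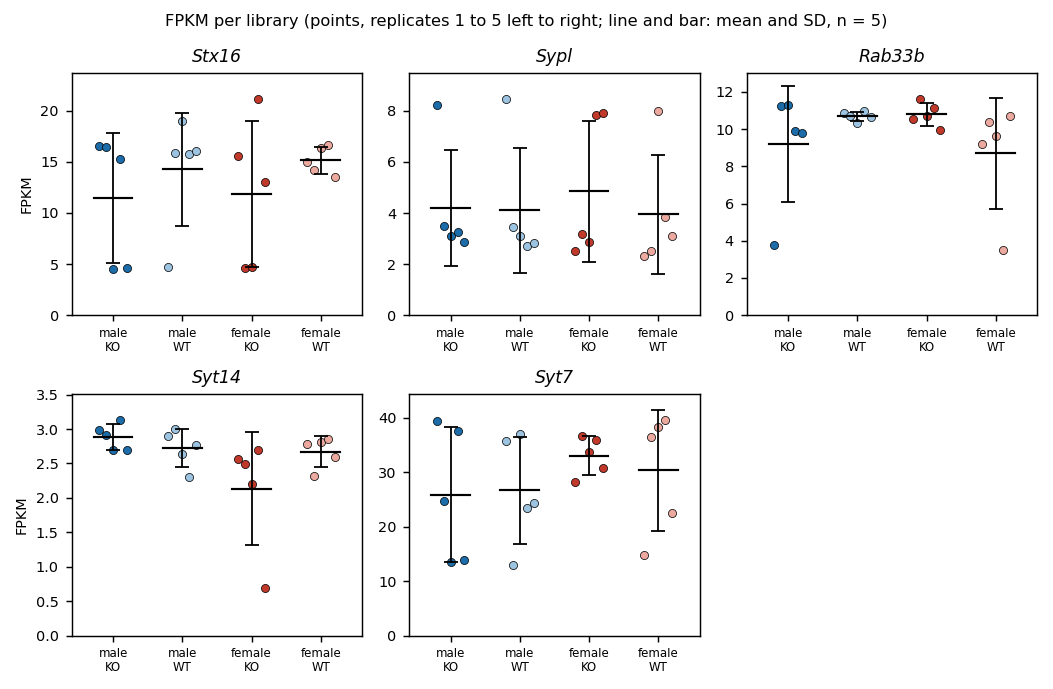
FPKM of Stx16, Sypl, Rab33b, Syt14 and Syt7 in each library (points, replicates 1 to 5 from left to right) of male KO, male WT, female KO and female WT, with mean and SD (n = 5); axes start at 0. Points of a group fall on levels far apart, as in Stx16 of female KO (4.64 to 21.1 FPKM).

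Of 57 other presynaptic genes outside the symbol pattern, 1 passed in females, Scamp5, a secretory carrier membrane protein (log2 difference 0.16, limma adjusted p = 0.0340, higher in KO), with 12 of the 57 (21.1%) below 0.05 before adjustment. Over all tested genes 3.32% passed there and 19.5% were below 0.05 before adjustment. In males 0 passed in limma and 8 (14%) had an unadjusted p under 0.05, against 0.0455% and 8.69% of all tested genes. Averaged over the sexes, Scamp5 (0.13) and Ppfia3, a liprin of the active zone (0.14), were higher in KO and Sytl2, a Rab27 effector (-0.16), was lower, so 3 of the 57 passed (5.26%, against 3.22% of all tested genes). Between the KO sexes, Ppfia2, another liprin (0.18), and Rph3a, rabphilin, an effector of Rab3 (0.23), were higher in males, which is 2 of the 57 (3.51%, against 5.38%). The median log2 difference of the 57 genes was -0.03 in females and 0.02 in males, against 0.03 and 0.02 for the 87 members.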

How the data were processed

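Hippocampal RNA of 20 libraries was analysed, in 4 groups of 5 taken from the sample titles. The values are FPKM per gene, 1 table for each library, deposited by the authors as the file headers name them. Per the submitters' processing notes they were made with FastQC, HISAT2 and StringTie (no versions) on mm10; the annotation release, the strand setting and the depth were not stated there. A gene listed at 0 can be a failed estimate (18 to 28 genes in a library, 0 members).

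Genes at 0.5 FPKM or more in at least 5 libraries (13174) were fitted with limma 3.58.1 (R 4.3.3, limma-trend) on log2(FPKM + 1), with 4 group means over 20 libraries. The 6 comparisons are those of the report, with Benjamini-Hochberg adjustment over all tested genes. Differences on this scale understate changes of low genes. The fit was first tested on data with known changes. The members, lists and tests were chosen with earlier results of these data known. Named are core release genes, members past the threshold, the 5 smallest p-values in each comparison, the 5 highest and lowest levels, members with a gap over 50% of their range, and Fmr1. Of the members, 26 overlap another gene model on the same strand (5 of them protein-coding: Sv2c, Syn2, Syngr2, Syt1 and Vamp3) and 36 overlap 1 on the other strand, from GENCODE M21, so their reads may be shared. Promoters are from RefSeq. Of the 87 members, 2 enter the counts over all members and are not reported here by name. Alternatives were rescaling to the upper quartile, a pseudocount of 0.1, no filter, a filter of 2 FPKM, a fit of the compared groups, the replicate number as a block, removal of the GC trend (loess, span 0.5, degree 1), and leaving out the libraries with over 500 FPKM of Ttr, those with over 4 FPKM of Prl, and each library in turn.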

Additional observations from a re-analysis of the deposited data

Results flagged for a closer look

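For the named members, 128 groups of 5 libraries were checked for a single library far from the other 4 (Dixon's test at the 95% level), and 14 had one, where chance gives about 5%. Of these, 7 are in the genes with separate levels, which were named because of a large gap between libraries. The total can therefore not be set against the 5%. Rab33b stood at 3.76 FPKM in male KO 1 (other male KO libraries 9.82 to 11.3) and 3.49 in female WT 4 (other female WT 9.21 to 10.7). Sypl was at 8.24 in male KO 1, 8.46 in male WT 1 and 7.997 in female WT 3, each at least 2 times as high as the other 4 libraries of its group. Stx16 was at 4.70 in male WT 1 (others 15.7 to 19.04) and Syt14 at 0.696 in female KO 5 (others 2.21 to 2.69).

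The other 7 are smaller departures, and chance alone would give some of this kind. Female WT 4, which holds 878 FPKM of Ttr, was the lowest of its group for Vamp2 (199.9, others 217 to 224), Syngr1 (59.8, others 68.4 to 71.6) and Sv2a (74.05, others 80.5 to 82.7). Female KO 1 was the lowest of its group for Vamp2 (223, others 240.0 to 245) and the highest for Syn1 (173, others 162 to 165). Rims1 was low in female WT 2 (17.3, others 19.95 to 20.98) and Syt1 was high in female WT 5 (199, others 186 to 188). The source of these values was not tested.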

How the results depend on the processing

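Of the 87 members, 5 passed in females, and 1 did so with only the compared groups fitted, 3 with the GC trend removed, and 0 without the libraries high in Ttr or without those high in Prl (10 and 12 at an unadjusted limma p under 0.05). The 5 members of the average over both sexes became 1 without the high-Ttr libraries and 0 without the high-Prl libraries (13 and 11 at an unadjusted p under 0.05). Between the KO sexes, 5 became 8 with only the compared groups, 1 with the GC trend removed, and 0 without the high-Ttr or the high-Prl libraries (11 and 12 at an unadjusted p under 0.05). The cause was not tested, and the settings without high-Ttr or high-Prl libraries hold 4 or 3 fewer libraries. Counts under changed settings are of members only, without the share of all tested genes, so they do not show a loss particular to the members. Leaving out 1 library at a time gave 1 to 6 members in females, 3 to 6 for the average and 0 to 6 between the KO sexes. The comparisons in males, of the KO effects and of the WT sexes kept 0 calls under each setting run, with 3 to 15 members at an unadjusted limma p under 0.05. Over the 30 differences of named members, 212 of 259 values under other settings and 346 of 400 with 1 library left out kept their direction and their side of the threshold. Another 47 and 54 kept the direction and lost the call, and 0 reversed. The 30 include differences that had not passed and had no call to lose, so these shares overstate how stable the calls were. In females the call of Syp held in 7 of 9 other settings and that of Syngr1 in 4 of 9.

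With the replicate number as a block, 3 members passed in females and 3 for the average over both sexes, and the other counts were as reported. Same-numbered libraries did not deviate together (correlations of -0.105 to 0.0651 over genes, own number the best match for 2 of 20). Such correlations cannot exclude a shared batch or litter, and what the numbers stand for is not stated.

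FPKM carry no depth, so precision is set by 5 libraries a group.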

Other observations

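Of the members, 4 lie on the X chromosome in the deposited tables: Syp, Syn1, Rab33a and Rab39b, the last a GTPase gene whose loss causes intellectual disability in humans. Between male and female WT libraries none passed in limma, with log2 differences of -0.02 for Syp, -0.04 for Syn1, 0.06 for Rab33a and 0.07 for Rab39b (adjusted p of 0.703 to 0.901). Between male and female KO libraries Syp was lower in males (-0.16, adjusted p = 0.0220), and Syn1 (-0.11, adjusted p = 0.127), Rab33a (0.13, 0.329) and Rab39b (0.12, 0.210) did not pass.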
